A study of Mus musculus with 20 samples.

Results

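Mouse embryos at the 4-cell stage that carried a heterozygous deletion of an MT2C_Mm repeat at Pcgf5 (Hetero KO) were compared with wild-type embryos (WT) across all genes. The comparison was fixed by the labels and uses 3 Hetero KO and 2 WT libraries, 5 of the 16 RNA libraries of the series. The 3 libraries of embryos with the homozygous deletion (Homo KO) entered the same statistical fit and are given beside them. Each library was made from 10 pooled embryos with the SMART-Seq v4 PLUS kit, 48 hours after insemination. In all 3 groups, oocytes of superovulated females were fertilised in vitro and the embryos were cultured in KSOM medium, and the labels name no other agent for the 4-cell embryos. Strain, age, the parent that passed on the deletion, the number of deletion lines and the bounds of the deletion are not given in the sources used here. A single batch label is given to every library. The labels do not say whether replicates stem from separate cultures, and p-values therefore measure only the spread between these libraries, which may be technical.

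PCGF5 is a ring-finger protein of a variant Polycomb repressive complex 1 (PRC1). Such complexes pair a PCGF protein with the ubiquitin ligases RING1 or RNF2 and place a single ubiquitin on histone H2A, a mark of silenced chromatin. MT2C_Mm is a long terminal repeat related to MT2_Mm, the repeat that drives the endogenous retrovirus MERVL when the mouse embryo starts its own transcription at the 2-cell stage (zygotic genome activation, ZGA). Such repeats can serve as promoters for nearby genes. By the 4-cell stage the embryo has degraded most mRNA inherited from the oocyte and has switched down the genes of the 2-cell burst. The series title ties Pcgf5 under MERVL control to ZGA, and the heterozygous embryos address what the loss of the repeat on one chromosome does.

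No gene passed the test between Hetero KO and WT. The edgeR quasi-likelihood test with Benjamini-Hochberg adjustment called 0 of 13766 tested genes at an adjusted p of 0.05, or 0%. Of these genes, 655 (4.76%) had an unadjusted p under 0.05, with 385 (2.80%) higher and 270 (1.96%) lower in Hetero KO. By other methods, the DESeq2 Wald test called 6 genes higher and 1 lower, and limma on log2(TPM + 1) called 0 in both directions. In 2833 genes (20.6%) the 3 Hetero KO and 2 WT libraries did not overlap, with Hetero KO higher in 1303 (9.47%) and lower in 1530 (11.1%). A random order of 3 and 2 libraries would separate a similar share of genes, so separation alone does not mark a change. Expression values below are CPM (the counts of a gene per fixed library total, scaled by TMM), which are not corrected for gene length, and changes are log2 fold changes of Hetero KO over WT with the standard error (SE) of the fit.

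Pcgf5 mRNA in Hetero KO embryos lay across the WT level. The gene lies at chr19:36348329-36460970 of GRCm38.p6. It was counted on a single transcript of 1509 bases, and the deposited values do not tell its start sites apart. RefSeq annotates 3 starts, whose windows (250 bases before the start in lower case and the first 50 transcribed bases in capitals) are shown because the deleted repeat is labelled as lying at this gene.
Pcgf5 start 1, chr19:36348079-36348378, plus strand: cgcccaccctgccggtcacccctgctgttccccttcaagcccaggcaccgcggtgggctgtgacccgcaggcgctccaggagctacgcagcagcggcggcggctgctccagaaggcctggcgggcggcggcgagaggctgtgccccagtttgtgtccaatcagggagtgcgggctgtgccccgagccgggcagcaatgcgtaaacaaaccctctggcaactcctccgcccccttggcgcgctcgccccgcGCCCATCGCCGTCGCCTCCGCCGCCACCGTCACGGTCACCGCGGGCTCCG
Pcgf5 start 2, chr19:36378817-36379116, plus strand: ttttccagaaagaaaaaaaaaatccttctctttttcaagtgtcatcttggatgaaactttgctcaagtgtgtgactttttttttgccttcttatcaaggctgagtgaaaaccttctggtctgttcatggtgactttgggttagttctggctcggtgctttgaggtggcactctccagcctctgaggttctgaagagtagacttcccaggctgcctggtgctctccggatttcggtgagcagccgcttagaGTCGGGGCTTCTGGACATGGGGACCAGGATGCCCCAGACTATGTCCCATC
Pcgf5 start 3, chr19:36409498-36409797, plus strand: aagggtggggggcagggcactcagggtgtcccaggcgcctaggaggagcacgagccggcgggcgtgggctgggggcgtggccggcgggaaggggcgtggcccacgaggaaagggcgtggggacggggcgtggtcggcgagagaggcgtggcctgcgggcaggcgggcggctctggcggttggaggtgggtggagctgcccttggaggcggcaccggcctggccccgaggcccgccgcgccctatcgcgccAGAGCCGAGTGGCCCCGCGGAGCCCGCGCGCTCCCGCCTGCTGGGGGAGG
Start 1 and start 3 lie in GC-rich DNA with 73.0% and 78.7% G or C and 34 and 35 CpG pairs, while start 2 has 48.3% and 5 CpG pairs. The median of 32851 RefSeq windows of the same length was 52.7% and 7 CpG pairs. The letters TATAAA, searched on both strands, occur in none of the 3 Pcgf5 windows and in 13.6% of all windows, and CCAAT occurs in the window of start 1 and in 37.4% of all. Where the deleted MT2C_Mm copy lies relative to these starts could not be determined here.

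Pcgf5 stood at 338, 255 and 286 CPM in the Hetero KO libraries, at 193, 214 and 164 CPM in the Homo KO libraries and at 331 and 297 CPM in the WT libraries. The Hetero KO values surrounded the WT values, and all 3 Homo KO libraries lay below every other library. The mean was 293 ± 42.1 CPM in Hetero KO (SD, n = 3) and 314 ± 24.0 CPM in WT (SD, n = 2), so that Hetero KO held 93.3% of the WT mean. The log2 fold change was -0.10 (SE 0.186, edgeR adjusted p = 0.987), and its 95% interval of -0.51 to 0.31 covers 70.3% to 124% of WT. The Homo KO mean, at 60.7% of WT, lies outside that interval. The log2 fold change of Homo KO over WT was -0.72 (SE 0.185, edgeR adjusted p = 0.236), which was not called either. Homo KO differed from Hetero KO by -0.62 at an unadjusted p of 0.00337 in the same edgeR fit, with an adjusted p of 0.424. Of all tested genes 8.22% had an unadjusted p under 0.05 between Homo KO and Hetero KO, and 0% were called. On the log2 scale Hetero KO lay 0.26 above the midpoint of Homo KO and WT (SE 0.150, 95% interval -0.07 to 0.59), a contrast added after seeing the data. These libraries therefore do not separate a Hetero KO level equal to WT from one halfway to Homo KO. Without Hetero KO replicate 2 the log2 fold change from WT was 0.00.

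The tested genes around Pcgf5 showed no called change. Of the 10 nearest annotated neighbours only 2 had deposited values, Hectd2 and 1500017E21Rik, and of these Hectd2 alone was tested. The other genes given here lie farther out. Of the 5 nearest genes of the files on each side, a selection made after seeing which annotated neighbours are in the files, 6 passed the filter on low counts. Kif20b, a kinesin of late cell division upstream of Pcgf5, had 473, 658 and 535 CPM in Hetero KO and 396 and 456 CPM in WT (log2 fold change 0.38, SE 0.190, edgeR adjusted p = 0.945). All 3 Hetero KO libraries were above both WT libraries, as were all 3 Homo KO libraries at 459 to 579 CPM. Rpp30, a subunit of RNase P, had 316, 553 and 397 CPM in Hetero KO and 282 and 392 CPM in WT. Downstream, Hectd2, a predicted ubiquitin ligase, had 8.85, 3.35 and 6.13 CPM in Hetero KO against 2.10 and 2.02 CPM in WT (log2 fold change 1.56, SE 0.744, edgeR adjusted p = 0.945). Hectd2 did not overlap between the groups, but its Homo KO libraries ran from 2.27 to 14.4 CPM. Tnks2, a tankyrase, had 178, 180.4 and 263 CPM in Hetero KO and 200.0 and 267 CPM in WT. The other tested neighbours, Htr7 and Fgfbp3, stayed at or under 1.72 CPM in these 5 libraries. Mir1950 had no counts.

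**Figure D1:**
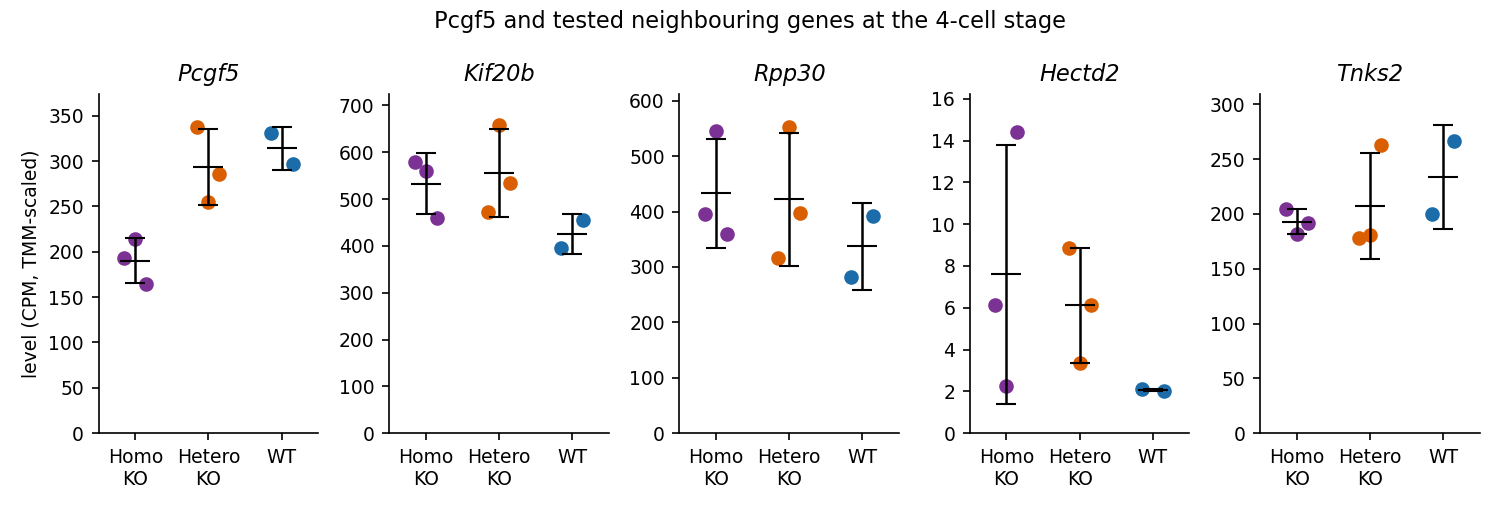
Levels of Pcgf5 and 4 neighbouring genes in CPM (each panel starts at 0) in Homo KO, Hetero KO and WT 4-cell embryos; each dot is 1 library, and the bar shows the mean with the SD. Hetero KO Pcgf5 values of 255 to 338 CPM surround the WT values of 297 and 331 CPM, whereas the Homo KO values stay at or below 214 CPM.

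The libraries of one group differed from each other about as much as they differed from the other group. Depth was 14310634, 17438598 and 15259769 summed expected counts in Hetero KO and 14329188 and 17871206 in WT. The median absolute log2 difference of a gene was 0.45 to 0.49 between Hetero KO libraries, 0.53 between the WT libraries and 0.38 to 0.56 between a Hetero KO and a WT library. Hetero KO replicate 3 and WT replicate 2 were the most alike of all 4-cell pairs, at 0.38. The median SE of a log2 fold change was 0.51 over all genes and 0.29 over the 6429 genes with a mean of at least 10 CPM. For 3898 of those more abundant genes (60.6%) the 95% interval lay within a log2 change of 1 in either direction, and over all tested genes this held for 3951 (28.7%).

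Hetero KO replicate 1 and WT replicate 2 stood apart in particular gene groups, which bears on the results that follow. In Hetero KO replicate 1, 124 genes were more than 2 log2 units above each of the other 4 libraries, against 28 to 58 such genes in each other library. In WT replicate 2, 144 genes were more than 2 log2 units below each of the others, against 56 to 97 elsewhere. Markers of cells other than the embryo were scarce. Of 22 cumulus and granulosa genes 6 passed the filter and 9 were at 0 in all 5 libraries, with a summed level of 4.49 to 9.79 CPM in Hetero KO and 3.03 to 4.84 CPM in WT. Blood and immune markers (7 of 17 tested, 7 at 0 in all 5) summed to 43.1 to 86.6 CPM in Hetero KO and 43.5 and 89.2 CPM in WT. Sperm markers (7 of 18 tested, 6 at 0 in all 5) summed to 37.3 to 61.6 CPM in Hetero KO and 37.2 and 37.8 CPM in WT. The part of such cells in any result was not tested. In bulk RNA of pooled embryos, fewer cells or embryos with an mRNA cannot be told apart from less mRNA in each.

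All 16 listed marker genes of cleavage-stage embryos passed the filter on low counts. The most abundant mRNA of the comparison was that of Dppa3, a maternal factor that guards DNA methylation in the early embryo, at 10012, 13700.2 and 14182 CPM in Hetero KO and 10977 and 13643 CPM in WT. Npm1, Hprt, Ccnb1, Eif4e and Sumo2 were also among the 10 most abundant genes, with log2 fold changes between -0.30 and 0.38. Pou5f1, the pluripotency factor OCT4, was listed at only 1.94, 0.909 and 2.21 CPM in Hetero KO and 1.97 and 1.90 CPM in WT. Of 28 tested pluripotency and epiblast genes 12 were higher and 16 lower in Hetero KO and none was called (median -0.12, or 0.25 without WT replicate 2). Klf17, a zinc finger factor of cleavage stages, had 219, 155 and 303 CPM in Hetero KO and 267 and 308 CPM in WT. Fgf4, the growth factor that later divides epiblast from primitive endoderm, had 36.5, 28.4 and 32.4 CPM in Hetero KO and 14.5 and 27.8 CPM in WT (log2 fold change 0.62, SE 0.337, edgeR adjusted p = 0.945). The Fgf4 log2 fold change was 0.21 without WT replicate 1 and 1.14 without WT replicate 2.

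The 10 genes with the smallest p in each direction under the rule of choice are given as values, since none was called. Each has groups that do not overlap and at least 10 CPM in the higher group, which the rule of choice required. The rule also left out predicted genes, clones and pseudogenes by their symbols. All 20 have an edgeR adjusted p of 0.945. In Homo KO over WT, which shares the WT libraries, 10 of the 10 higher genes and 9 of the 10 lower genes changed in the same direction. The genes were chosen for their distance from these same WT libraries, which favours a shared direction, so these counts are no separate evidence. Between Homo KO and Hetero KO none of the 20 was called (lowest edgeR adjusted p = 0.406).

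Among the genes higher in Hetero KO, Mynn had the smallest p. It encodes myoneurin, a BTB zinc finger protein, at chr3:30602087-30619873. Mynn had 137, 133 and 112 CPM in Hetero KO against 61.5 and 73.1 CPM in WT (log2 fold change 0.92, SE 0.191, unadjusted p of 0.000527 and edgeR adjusted p = 0.945). The 3 Hetero KO libraries lie close together and the Homo KO libraries, at 129.8 to 142 CPM, lie within or just above them. Rgs9bp, known as a membrane anchor for a regulator of G-protein signalling in photoreceptors, lies at chr7:35578993-35585582. It had 15.7, 19.5 and 13.8 CPM in Hetero KO against 1.53 and 4.28 CPM in WT, a log2 fold change of 2.49 (SE 0.541), the largest of the 20. Its Homo KO libraries, at 4.23 to 8.53 CPM, lay below every Hetero KO library. C87977, a PRAME-like gene of a family with many similar copies, had 50.1, 21.7 and 31.9 CPM in Hetero KO against 8.28 and 12.1 CPM in WT (log2 fold change 1.76, SE 0.400). Reads shared with its copies make that value uncertain.

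Cep55, which is needed to cut the bridge between daughter cells, had 70.4, 98.5 and 53.6 CPM in Hetero KO against 36.1 and 28.1 CPM in WT (log2 fold change 1.21, SE 0.286). Atxn3, a deubiquitinating enzyme, had 268, 369 and 311 CPM in Hetero KO and 153 and 210.3 CPM in WT (0.80, SE 0.200). Atad1, an ATPase that extracts misplaced proteins from the mitochondrial surface, had 161, 208 and 194 CPM in Hetero KO and 115 and 101 CPM in WT (0.79, SE 0.198). These 3 genes have Homo KO levels above WT as well. Btbd10 had 66.6, 68.0 and 48.9 CPM in Hetero KO and 32.0 and 23.8 CPM in WT (1.13, SE 0.265).

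Of the 10 genes, 3 lie on the X chromosome. Nxf2, an RNA export factor, had 625, 856 and 681 CPM in Hetero KO, 385, 470.2 and 285 CPM in Homo KO and 314 and 390.3 CPM in WT. Hetero KO stood above both other groups for Nxf2, with a log2 fold change of 1.03 over WT (SE 0.235), and Homo KO differed from Hetero KO by -0.92 (unadjusted p of 0.000863, edgeR adjusted p = 0.406). Fam122b had 136, 152 and 126 CPM in Hetero KO and 56.0 and 82.9 CPM in WT (0.99, SE 0.233). Xlr4a, of an X-linked family with near-identical copies and therefore uncertain, had 85.4, 58.7 and 60.9 CPM in Hetero KO and 32.7 and 29.8 CPM in WT (1.13, SE 0.276).

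Among the genes lower in Hetero KO, Elovl6 had the smallest p of all 20. It encodes the enzyme that lengthens C16 fatty acids and lies at chr3:129532386-129638495. Elovl6 had 56.9, 75.2 and 82.8 CPM in Hetero KO against 137 and 188 CPM in WT (log2 fold change -1.19, SE 0.226, unadjusted p of 0.000258 and edgeR adjusted p = 0.945). The Homo KO libraries, at 76.7 to 95.8 CPM, also lay below both WT libraries. Other enzymes of metabolism were Bcat1, the cytosolic aminotransferase of branched-chain amino acids, and Pdp2, a phosphatase that switches on pyruvate dehydrogenase. Bcat1 had 187, 183 and 286 CPM in Hetero KO against 365 and 370.1 CPM in WT (-0.75, SE 0.211). Pdp2 had 47.2, 38.0 and 66.4 CPM in Hetero KO against 109 and 93.7 CPM in WT (-1.0, SE 0.277).

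Rn45s, the precursor of ribosomal RNA, had 394, 265 and 316 CPM in Hetero KO against 812 and 508 CPM in WT (log2 fold change -1.02, SE 0.226). Its Homo KO libraries held 264 to 311 CPM. The libraries are labelled as polyA RNA and this RNA is not normally polyadenylated, so the value reflects what remained of it after that choice. Ptp4a1, a phosphatase of growth signalling, had 80.6, 81.6 and 74.2 CPM in Hetero KO, 109.7, 167 and 197 CPM in Homo KO and 151 and 136 CPM in WT. Hetero KO was the lowest group for Ptp4a1, at -0.87 against WT (SE 0.233), and Homo KO differed from it by 1.00 (unadjusted p of 0.000617, edgeR adjusted p = 0.406).

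The other genes lower in Hetero KO lay between 2.50 and 70.3 CPM in the compared libraries. Ankrd13a, a ubiquitin-binding protein of receptor uptake, had 9.38 to 10.4 CPM in Hetero KO and 21.9 and 23.4 CPM in WT (-1.19, SE 0.306). R3hcc1 had 7.24, 7.84 and 12.7 CPM in Hetero KO and 22.4 and 30.5 CPM in WT (-1.51, SE 0.368). Chrna1, the alpha subunit of the muscle acetylcholine receptor, had 23.5, 30.2 and 37.0 CPM in Hetero KO and 70.3 and 50.9 CPM in WT (-1.0, SE 0.281). For all 3 genes every Hetero KO library was below both WT libraries. Tuba3a, an alpha-tubulin with a near-identical copy and therefore uncertain, had 4.02, 2.50 and 4.27 CPM in Hetero KO and 9.94 and 10.5 CPM in WT (-1.50, SE 0.428). Uba1y, the Y-linked ubiquitin-activating enzyme, had 3.62, 3.75 and 3.79 CPM in Hetero KO and 17.2 and 10.7 CPM in WT (-1.90, SE 0.461).

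**Figure D2:**
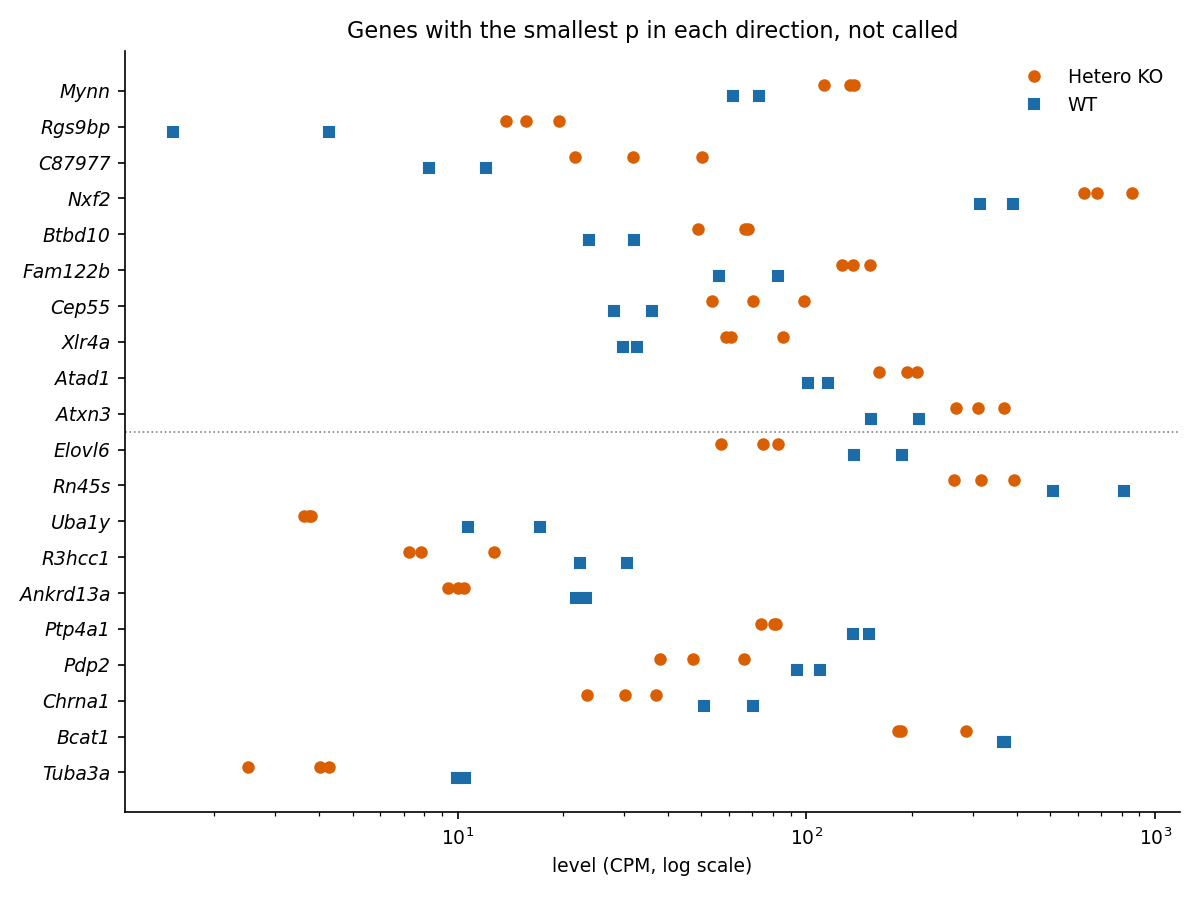
CPM on a log axis of the 10 named genes higher in Hetero KO (above the dotted line) and the 10 named genes lower (below it). They have the smallest p under the rule of choice. Circles are the 3 Hetero KO libraries and squares the 2 WT libraries. The groups do not overlap by the rule of choice, and Rgs9bp shows the widest gap.

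**Figure D3:**
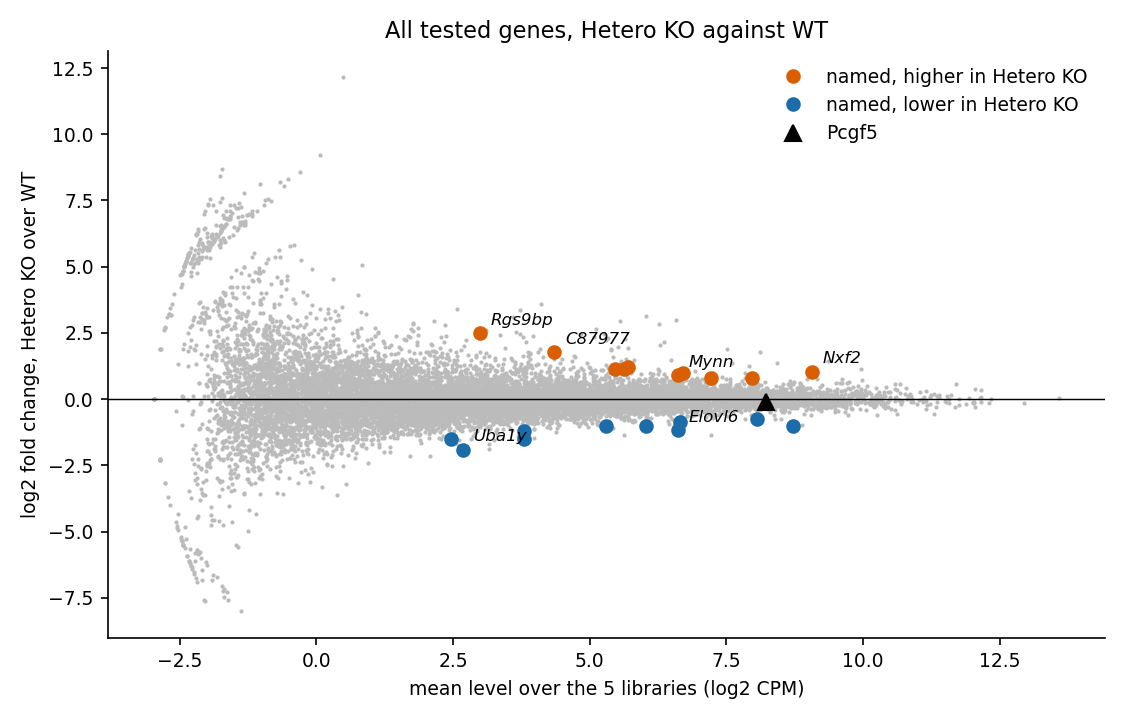
Log2 fold change of Hetero KO over WT against the mean log2 CPM of the 5 libraries for the 13766 tested genes; orange and blue dots mark the named genes and the triangle marks Pcgf5 at -0.10. Arcs of points at the far left are genes at 0 in all libraries of one group, whose fitted values are not measures of size.

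Among tested genes, 215 were at 0 in both WT libraries and 84 at 0 in all 3 Hetero KO libraries. These counts cannot be compared directly, because WT has fewer libraries than Hetero KO. Gm15091, a predicted gene on the X chromosome, had the smallest p among genes at 0 in either group. It was at 0 in WT against 6.90, 1.93 and 5.17 CPM in Hetero KO. Against a floor of 3 counts over the WT group it was at least 48.9-fold higher in Hetero KO (unadjusted p of 2.51e-05 and edgeR adjusted p = 0.345), and Homo KO held 4.10 to 5.54 CPM. It is named outside the naming rule, after its values were seen. DESeq2 called Gm15091, Mynn, Rgs9bp and C87977 higher, and Elovl6 lower, in Hetero KO. DESeq2 also called Anxa1 and Cav1, each at 0 in 4 of the 5 libraries and at 8.13 and 9.79 CPM in Hetero KO replicate 3, which are outside the naming rule too.

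No listed gene of the Polycomb system was called between Hetero KO and WT, which does not show that the levels were equal. Among the PCGF paralogues the median log2 fold change was -0.05 over 5 tested genes, beside 0.00 over all genes, with 2 higher, 3 lower and none called, and it was 0.03 without Hetero KO replicate 3. Bmi1, the PCGF protein of canonical PRC1, had 649, 590.2 and 303 CPM in Hetero KO and 439 and 259 CPM in WT, overlapping ranges (0.56, SE 0.342). Pcgf3, the paralogue closest to Pcgf5 in known function, had 17.0, 17.2 and 20.1 CPM in Hetero KO and 13.6 and 13.9 CPM in WT. These Pcgf3 groups do not overlap, at a log2 fold change of 0.39 (SE 0.298, edgeR adjusted p = 0.951). Pcgf1, of the variant complex with KDM2B, had 304, 417 and 378 CPM in Hetero KO and 375 and 442 CPM in WT.

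Among 24 partners of PRC1, 13 were higher and 11 lower in Hetero KO and none was called, with a median of 0.00. L3mbtl2, a subunit of the PCGF6 complex, had 12.3, 13.1 and 16.4 CPM in Hetero KO and 30.2 and 19.5 CPM in WT (-0.83, SE 0.379). Bcor, the X-linked scaffold of the PCGF1 complex, had 25.5, 38.4 and 25.8 CPM in Hetero KO and 20.5 and 15.7 CPM in WT (0.72, SE 0.411). Both separate the groups, in opposite directions. The 12 tested PRC2 subunits, which place methyl groups on histone H3, had a median of -0.06, or 0.25 without WT replicate 2, and the groups were separate in 0 of them beside 20.6% of all genes. Eed, the PRC2 subunit that reads its own mark, had 214, 255 and 209 CPM in Hetero KO and 134 and 214 CPM in WT. The 10 tested canonical PRC1 subunits had a median of -0.10, which became 0.72 without WT replicate 1 and -0.33 without Hetero KO replicate 2. Of these, 4 were higher and 6 lower in Hetero KO. Cbx2, which binds the PRC2 mark, had 4.02, 7.39 and 2.48 CPM in Hetero KO and 1.85 and 0.951 CPM in WT (1.72, SE 0.721, edgeR adjusted p = 0.945).

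The enzymes that remove ubiquitin from H2A, with their partners, had a median log2 fold change of 0.23, with 13 of 16 genes higher in Hetero KO and 0 called. The groups were separate for 4 higher and 1 lower gene of these 16, or 31.2% beside 20.6% of all genes. The mean log2 CPM of the list was 4.27, 4.08 and 3.93 in Hetero KO and 3.84 and 3.89 in WT, so that every Hetero KO library was above both WT libraries, replicate 3 by a small step. The median stayed positive under every alternative, between 0.14 and 0.32. In Homo KO over WT the median of the list was -0.02, and its mean log2 CPM was 4.14, 3.73 and 4.12 in the Homo KO libraries. The 3 members with the smallest p did not share a pattern. Asxl1, the partner of the deubiquitinase BAP1, had 23.7, 21.5 and 11.6 CPM in Hetero KO and 32.2 and 24.1 CPM in WT (-0.57, SE 0.356). Usp46, one of the deubiquitinases, had 27.0, 5.0 and 4.82 CPM in Hetero KO and 5.73 and 5.05 CPM in WT, high in Hetero KO replicate 1 alone, which also had the highest mean of the list. Hcfc1, an X-linked cofactor of BAP1, had 28.9, 23.6 and 25.8 CPM in Hetero KO and 18.3 and 21.6 CPM in WT (0.39, SE 0.307).

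Developmental genes that Polycomb silences in other cells were mostly off. Of 88 listed genes, 37 passed the filter and 17 were at 0 in all 5 libraries, and the summed level of the list was 64.9, 90.0 and 73.8 CPM in Hetero KO and 88.0 and 72.8 CPM in WT. None was called, with 21 higher and 16 lower in Hetero KO. The median of 0.13 became 0.67 without WT replicate 1 and -0.23 without Hetero KO replicate 2. Gata4, a factor of primitive endoderm, had 16.1, 17.4 and 23.4 CPM in Hetero KO and 21.3 and 29.8 CPM in WT. Among genes that silence DNA through DNA methylation or methylation of histone H3 at lysine 9, 30 of 40 were higher in Hetero KO (median 0.16, between 0.11 and 0.26 under the alternatives, 0 called). Atrx, an X-linked remodeller of heterochromatin, had 558, 594 and 720.5 CPM in Hetero KO and 337 and 404 CPM in WT (0.75, SE 0.218). Mphosph8, which reads the lysine 9 mark, had 140.2, 146 and 84.8 CPM in Hetero KO and 78.9 and 81.7 CPM in WT (0.62, SE 0.252). Both have separate groups and an edgeR adjusted p of 0.945.

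The genes of the 2-cell burst did not move in a shared direction, and the 2 WT libraries were far apart in them. None of 41 tested 2-cell ZGA genes was called, with 16 higher and 25 lower in Hetero KO. The mean log2 CPM over the list was 4.72, 4.15 and 4.04 in Hetero KO and 5.14 and 3.22 in WT, so that all Hetero KO libraries lay between the WT libraries. The median log2 fold change of -0.16 became 0.95 without WT replicate 1 and -0.63 without WT replicate 2. Single genes show the gap between the WT libraries, and they are named here after their values were seen. Zfp352, a zinc finger gene of the 2-cell stage, had 75.5, 60.2 and 34.3 CPM in Hetero KO and 76.5 and 1.78 CPM in WT. Gm5662, of a multicopy 2-cell family, had 287, 104 and 69.7 CPM in Hetero KO and 748 and 47.2 CPM in WT. Usp17lc, a deubiquitinase of a family with many copies, had 6.50, 3.47 and 2.27 CPM in Hetero KO and 35.2 and 0.535 CPM in WT. In all 3 genes WT replicate 1 was above every Hetero KO library and WT replicate 2 below. Homo KO libraries, in which Gm5662 stood at 838 to 1102 CPM, had a list mean of 5.14 to 5.32.

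Without WT replicate 1, edgeR called a single gene, Zfp352, at a log2 fold change of 4.97 and an adjusted p of 0.0374. With both WT libraries its log2 fold change was 0.54. By the naming rule, Ddit4l, a regulator of growth signalling, had the smallest p of the list, with 31.0, 13.0 and 22.9 CPM in Hetero KO and 8.73 and 9.51 CPM in WT (1.29, SE 0.507). Nelfa, a subunit of the factor that holds RNA polymerase near the promoter, had 34.4, 29.3 and 30.4 CPM in Hetero KO and 47.2 and 40.2 CPM in WT (-0.48, SE 0.233).

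Oocyte mRNA was highest in Hetero KO replicate 1 among the 5 libraries. The Obox family, homeobox genes of oocyte and embryo whose near-identical copies make single values uncertain, had a mean log2 CPM of 8.14, 6.06 and 5.84 in Hetero KO and 6.06 and 5.05 in WT. The median log2 fold change of 6 tested members was 2.31, with 4 higher and 2 lower in Hetero KO. Without Hetero KO replicate 1 it was 0.29. The summed level of the family overlapped, at 3409, 2001 and 2919 CPM in Hetero KO and 2292 and 2684 CPM in WT. Obox1 had 299, 23.6 and 31.8 CPM in Hetero KO and 31.9 and 11.1 CPM in WT. Obox5 had 541, 67.4 and 44.5 CPM in Hetero KO and 58.4 and 39.2 CPM in WT. For both genes replicate 1 was several times above the other Hetero KO libraries, which lay in or near the WT range.

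Replicate 1 was also the highest library for oocyte genes outside that family, named after their values were seen. Btg4, an adaptor for the removal of maternal mRNA, had 954, 88.9 and 46.4 CPM in Hetero KO and 46.8 and 44.1 CPM in WT. Tcl1, a cofactor of AKT abundant in oocytes, had 1249.5, 148 and 63.1 CPM in Hetero KO and 133 and 131 CPM in WT. Homo KO replicate 3 was likewise high for Btg4, at 448 CPM against 46.5 and 70.7 CPM in the other Homo KO libraries. Of 54 tested oocyte and maternal genes 35 were higher and 19 lower in Hetero KO and none was called, and the median of 0.38 became -0.07 without Hetero KO replicate 1. Nlrp9a, an oocyte gene of the NLRP family, had 77.3, 39.9 and 7.93 CPM in Hetero KO and 4.97 and 3.03 CPM in WT. Its groups do not overlap (log2 fold change 3.38, SE 1.13, edgeR adjusted p = 0.945), although the Hetero KO libraries differ widely.

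Genes of maternal mRNA clearance had a median of 0.12 over 30 tested members, with 17 higher and 13 lower, and -0.03 without Hetero KO replicate 1. Ythdf2, a reader of methylated mRNA that removes maternal transcripts, had 283, 264 and 349 CPM in Hetero KO and 398 and 407 CPM in WT (-0.43, SE 0.196). Ythdf3, its paralogue, had 124, 104 and 90.6 CPM in Hetero KO and 56.2 and 91.3 CPM in WT (0.52, SE 0.276).

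In ribosome biogenesis 30 of 38 tested genes were lower in Hetero KO, none was called, and the median log2 fold change was -0.25 (-0.30 to -0.20 under the alternatives). The groups did not overlap in 16 of these 38 genes, all lower in Hetero KO, or 42.1% beside 20.6% of all genes. The mean log2 CPM was 7.20, 7.24 and 7.38 in Hetero KO, 7.39, 7.22 and 7.22 in Homo KO and 7.49 and 7.52 in WT, with every Hetero KO library under both WT libraries. The summed level of the list overlapped between the groups, at 15373, 15462 and 18343 CPM in Hetero KO and 16327 and 19121 CPM in WT. Fbl, the enzyme that methylates ribosomal RNA, had 53.1, 34.2 and 51.3 CPM in Hetero KO and 87.1 and 74.9 CPM in WT (-0.81, SE 0.246). Nop56, its partner in the same particle, had 308, 359 and 388 CPM in Hetero KO and 473 and 522 CPM in WT (-0.50, SE 0.184). The precursor Rn45s, given above, was chosen for its small p in this same comparison and adds no separate evidence on this list.

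For ribosomal proteins, 77 of 84 genes were lower in Hetero KO with 0 called, and the median was -0.24. It was -0.38 without WT replicate 1 and -0.05 without WT replicate 2. The list's mean log2 CPM overlapped between the groups, at 8.71, 8.53 and 8.93 in Hetero KO and 8.80 and 9.10 in WT. Rps2, a protein of the small subunit, had 466, 364 and 529.6 CPM in Hetero KO and 647 and 713 CPM in WT (-0.58, SE 0.202). Reads shared with the many processed copies of ribosomal protein genes make such values uncertain. Of 26 early zygotic genes of RNA and protein synthesis, 22 were lower in Hetero KO and none was called (median -0.28, and -0.14 without Hetero KO replicate 1). The groups did not overlap in 9 lower genes and 1 higher gene, or 38.5% of the list beside 20.6% of all genes. Eef1a1, the elongation factor that brings transfer RNA to the ribosome, had 1012, 869.7 and 1249.8 CPM in Hetero KO and 1471 and 1671 CPM in WT (-0.59, SE 0.194). Eif5a, which helps ribosomes past difficult sequences, had 633, 693 and 828 CPM in Hetero KO and 1069 and 1107 CPM in WT (-0.60, SE 0.201). The unadjusted edgeR p was 0.00700 for Fbl, 0.0111 for Eef1a1 and 0.0121 for Eif5a, each with an adjusted p of 0.945.

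Splicing factors had a median of -0.15, with 29 of 37 genes lower and 0 called. Their groups were separate in 12 lower and 4 higher genes, or 43.2% of the list beside 20.6% of all genes. Hnrnpa2b1, a nuclear RNA-binding protein, had 405, 384 and 451 CPM in Hetero KO and 598 and 631 CPM in WT (-0.57, SE 0.208). Srsf10, a regulator of alternative splicing, went the other way with 419, 549 and 348 CPM in Hetero KO and 285 and 308 CPM in WT (0.56, SE 0.204). Abundant nuclear and host noncoding RNAs had a median of -0.19 over 19 tested genes, with 6 higher and 13 lower. They include Snhg3, a host of small nucleolar RNA, with 42.4, 42.3 and 32.9 CPM in Hetero KO, 105, 109.7 and 87.3 CPM in Homo KO and 51.2 and 78.2 CPM in WT. Hetero KO and Homo KO lay on opposite sides of WT for Snhg3.

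Energy metabolism showed small differences. Of 41 genes of glycolysis and the citrate cycle 32 were lower in Hetero KO and none was called (median -0.21, between -0.29 and -0.13 under the alternatives). Ldha, lactate dehydrogenase A, had 13.7, 9.09 and 11.9 CPM in Hetero KO and 22.1 and 28.9 CPM in WT (-1.14, SE 0.356, unadjusted p of 0.00829 and edgeR adjusted p = 0.945). Ogdh, of the citrate cycle, had 34.4, 44.8 and 48.9 CPM in Hetero KO and 68.9 and 67.0 CPM in WT (-0.67, SE 0.237). Both have separate groups. The 67 tested nuclear genes of the respiratory chain had a median of -0.05, or 0.05 without WT replicate 2, and Atp5b, the catalytic subunit of ATP synthase, had 544, 494 and 523 CPM in Hetero KO and 686 and 667 CPM in WT (-0.38, SE 0.151). Among 24 genes of the unfolded protein and amino acid responses the median was -0.29, and 0.04 without WT replicate 1. Phgdh, the first enzyme of serine synthesis, had 32.2, 38.6 and 50.5 CPM in Hetero KO and 61.7 and 77.6 CPM in WT.

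The cell cycle lists had medians near that of all genes. The median was -0.12 over 34 cell cycle genes, with 14 higher and 20 lower. It was also -0.12 over 45 replication genes, with 18 higher and 27 lower, and none was called in either list. The groups did not overlap in 6 higher and 10 lower replication genes, or 35.6% of that list beside 20.6% of all genes. In the cell cycle list they were separate in 6 lower and 0 higher genes, or 17.6%. Cdt1, which loads the replicative helicase, had 39.4, 33.2 and 39.1 CPM in Hetero KO and 59.2 and 56.7 CPM in WT (-0.64, SE 0.247). Cdc25a, a phosphatase that promotes entry into S phase, had 19.8, 21.3 and 26.9 CPM in Hetero KO and 31.6 and 44.7 CPM in WT (-0.75, SE 0.309). Cdkn1a, the p53 target p21 that brakes the cycle, had 66.6, 48.8 and 50.2 CPM in Hetero KO and 32.5 and 30.2 CPM in WT (0.82, SE 0.245, unadjusted p of 0.00657 and edgeR adjusted p = 0.945). The 24 tested p53 targets had 15 higher and 9 lower genes and a median of 0.13. Psme4, a proteasome activator, had 129.8, 204 and 132 CPM in Hetero KO and 99.8 and 84.6 CPM in WT, while the 37 proteasome genes had a median of 0.04, or -0.14 without WT replicate 1.

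Other groups had no called gene. The 26 tested trophectoderm genes had a median of -0.19, with 11 higher and 15 lower. The groups did not overlap in 2 higher and 7 lower trophectoderm genes, or 34.6% of the list beside 20.6% of all genes. Other lists lay below the share of all genes. The share was 0% for interferon and innate sensing genes, 3.12% for heat shock chaperones and 7.69% for primitive endoderm genes. For proteasome subunits it was 8.11% and for 2-cell ZGA genes 12.2%. Esx1, an X-linked placental homeobox gene, had 5.96, 3.69 and 2.48 CPM in Hetero KO and 20.5 and 6.12 CPM in WT. The 22 Hippo pathway genes had a median of -0.06, and Stk4, a kinase of that pathway, had 97.2, 93.5 and 92.2 CPM in Hetero KO and 56.3 and 73.1 CPM in WT. Primitive endoderm genes (13 tested, median -0.13), FGF and ERK genes (29, 0.06), heat shock chaperones (32, -0.09), SWI/SNF subunits (22, -0.22), interferon and innate sensing genes (16, -0.09) and core histones (30, -0.28) complete the set. Without WT replicate 2 the median was 0.57 for primitive endoderm genes, -0.13 for FGF and ERK genes, 0.36 for interferon and innate sensing genes and -0.58 for core histones. Without WT replicate 1 it was -0.61 for primitive endoderm genes, 0.05 for Hippo pathway genes and 0.12 for core histones. Imprinted genes, which are read from one parental copy, had 29 of 37 lower and a median of -0.33, or -0.12 without WT replicate 1. Rian, a maternally expressed noncoding RNA, had 0.201, 0 and 0.0689 CPM in Hetero KO, 1.68 to 9.29 CPM in Homo KO and 3.12 and 0.713 CPM in WT. Airn, the paternally expressed antisense RNA of the Igf2r locus, had 1.74, 1.02 and 1.52 CPM in Hetero KO and was at 0 in WT, at least 15.2-fold higher against a floor of 3 counts over the WT group. Both are near the detection limit, with an edgeR adjusted p of 0.945.

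**Figure D4:**
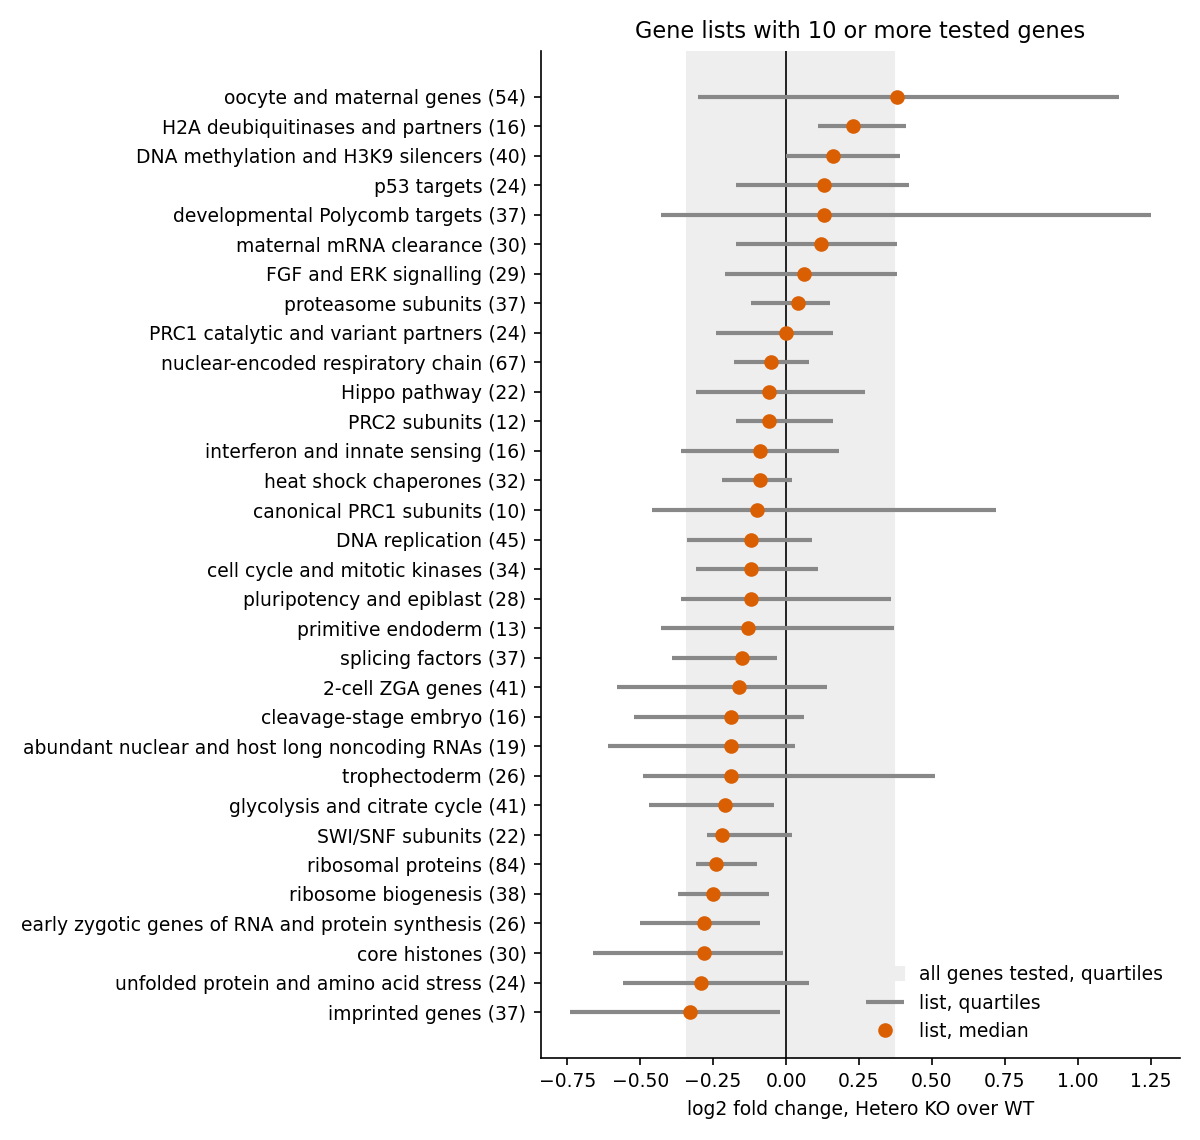
Median (dot) and quartiles (grey bar) of the log2 fold change of Hetero KO over WT for each list with 10 or more tested genes, whose number is in brackets; the shaded band holds the quartiles of all tested genes around their median of 0.00 (line). Every median but that of the oocyte and maternal list, at 0.38, lies within the band of -0.34 to 0.37.

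X-linked genes had a higher median log2 fold change than the genes of any autosome. This was examined after 3 of the 10 genes higher in Hetero KO were seen to be X-linked. The median log2 fold change was 0.21 over 582 tested X-linked genes and between -0.07 and 0.10 for the 19 autosomes. Hetero KO was above WT without overlap in 94 X-linked genes (16.2%) and below it in 34 (5.84%), beside 9.47% and 11.1% of all genes. The mean log2 CPM of X-linked genes was 3.13, 2.85 and 2.94 in Hetero KO, 3.07, 2.55 and 2.98 in Homo KO and 2.80 and 2.82 in WT. On this measure all Hetero KO libraries were above both WT libraries, replicate 2 by only a small step. The summed level of X-linked genes overlapped, at 46412, 44474 and 55824 CPM in Hetero KO and 32928 and 46435 CPM in WT, and replicates 1 and 2 of Hetero KO were below WT replicate 2. Across the alternatives the X median ran from 0.14 without Hetero KO replicate 3 to 0.31 without WT replicate 2. In Homo KO over WT, which shares the WT libraries, it was 0.04.

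The sex makeup of the pools is not given, and RNAs that mark it varied between libraries. Xist, made from the X chromosome that is silenced in females, stood at 19.7, 40.2 and 103 CPM in Hetero KO and 11.7 and 64.2 CPM in WT. The summed level of Y-linked genes was 71.7, 138 and 51.8 CPM in Hetero KO and 118 and 153 CPM in WT. Hetero KO replicates 1 and 3 had less Y-linked mRNA than either WT library, while replicate 2 lay between them. Of 8 tested Y-linked genes 6 were lower in Hetero KO, with a median of -0.48, and Eif2s3y, a translation factor subunit, had 13.0 to 46.5 CPM in Hetero KO and 37.5 and 60.4 CPM in WT. The part of the sex makeup in the X-linked difference, and in the values of Nxf2, Fam122b, Xlr4a, Atrx, Bcor, Hcfc1, Gm15091, Esx1 and Uba1y, was not tested.

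**Figure D5:**
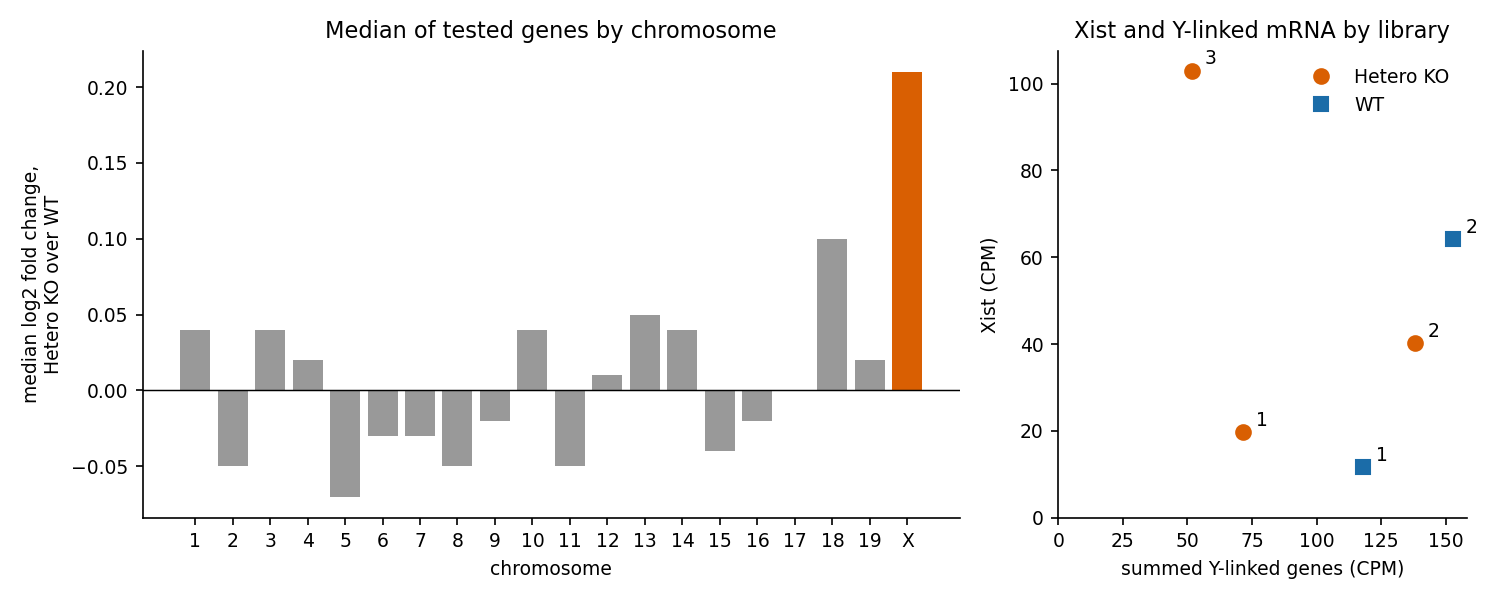
Left, median log2 fold change of Hetero KO over WT of tested genes by chromosome (bars from 0, X in orange, the Y chromosome with 8 genes left out); right, Xist against the summed Y-linked genes in CPM, with replicate numbers. The X median of 0.21 exceeds that of each autosome, and Hetero KO replicates 1 and 3 have the lowest Y-linked sums, at 71.7 and 51.8 CPM.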

How the data were processed

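RNA of pooled 4-cell embryos was measured with RSEM. The expected counts used here were estimated per gene by the authors and not normalised, per the file headers. The deposited TPM (abundances per transcript length, scaled to a common total) were also computed by RSEM, per the file headers, and serve in 1 alternative. The submitters' processing notes list STAR 2.7.10, RSEM 1.3.3 and the mm10 build. Read filters are not given in the sources used here.

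Rounded expected counts were used. The 8 libraries of the 4-cell stage (3 Hetero KO, 3 Homo KO, 2 WT) were fitted together, so that the groups share an estimate of the spread (common coefficient of variation 0.517). Of 24411 genes, 13766 passed filterByExpr with a minimum count of 10. They were scaled by TMM and tested in edgeR 4.0.16 (quasi-likelihood F test, robust, two-sided) in R 4.3.3, with Benjamini-Hochberg adjustment over all tested genes and a threshold of 0.05. Intervals are at 95%. Mean levels of lists use log2 CPM with a prior count of 2. The procedure was tested on simulated data. Positions are those of RefSeq on GRCm38.p6, and promoter windows are RefSeq's on the same build.

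Depth in summed expected counts was 14310634 to 17438598 in Hetero KO and 14329188 and 17871206 in WT, and 5.39% to 5.85% of gene values were not whole before rounding. Floors of 3 counts over a group cover counting error only, since PCR reads without molecular identifiers are not independent molecules.

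Named were Pcgf5, its neighbours, up to 10 genes per direction with the smallest p, separate groups, at least 10 CPM in the higher group and no predicted-gene symbol, up to 3 members of smallest p per list, and the 10 most abundant genes. Of 1256 listed genes in 38 lists 1246 are in the files. Comparison, lists and rules were chosen with earlier results of these data known, and lists were given no set test. Putting genes without counts in one group at their bounds changed no list's median. Alternatives were DESeq2 1.42.0 size factors and Wald test, limma 3.58.1 on log2(TPM + 1), no filter, the 5 compared libraries alone, the replicate number as a block, and leaving out each library. Knockdown and chromatin libraries were not analysed here.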

Additional observations from a re-analysis of the deposited data

How the results depend on the processing

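In Hetero KO against WT, edgeR called 0 genes higher and 0 lower with DESeq2 size factors, in the 5 compared libraries alone and with the replicate block, and limma did likewise. Without a filter on low counts 1 gene was called higher, Gm15091, at an adjusted p of 0.00378 against 0.345 with the filter. The DESeq2 Wald test called 6 higher and 1 lower. Leaving out single libraries gave 0 to 1 called higher and 0 called lower, the 1 being Zfp352 without WT replicate 1. Genes with an unadjusted p under 0.05 numbered 428 (without Hetero KO replicate 2) to 948 (without Hetero KO replicate 3). The Pcgf5 log2 fold change ran from -0.21 to 0.00, with 0.00 (to the other side of 0) without Hetero KO replicate 2, and that of Tnks2 (-0.17) from -0.38 to 0.03 with 1 library left out, crossing 0 without WT replicate 2. The log2 fold change of Zfp352 (0.54) ran from -0.45 without WT replicate 2 to 4.97 without WT replicate 1. The causes were not tested. Whether replicate numbers pair the libraries was not settled. Deviations from the group mean had a correlation of 0.17 between the libraries numbered 1 of WT and Hetero KO. Between those numbered 2 it was -0.07. The deviations of 2 WT libraries mirror each other, so these values are not independent and cannot decide pairing. With the replicate block the Pcgf5 log2 fold change was -0.04. With 1 WT library left out, the lone WT library is assumed to vary like the other groups. At this depth and number of libraries a log2 change of 1 lay outside the 95% interval in 60.6% of genes with a mean of at least 10 CPM.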
